A study of Mus musculus with 12 samples.

Results

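The 10 genes described here encode matrix proteins of hyaline cartilage: Col2a1, Col9a1, Col9a2, Col9a3, Col11a2, Acan, Comp, Matn1, Hapln1 and Cnmd. They were taken by symbol from a table of 23358 genes measured by RNA sequencing in newborn mouse skull. Of them, 9 were listed under these symbols and 1, Cnmd, under its older symbol Lect1. All 10 passed the low-count filter that kept 16190 genes.

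Tissue was dissected from pups at postnatal day 3 and comprised the frontal and nasal bones together with the frontonasal and coronal sutures. Inbred C57BL/6 and BALB/c mice gave 12 samples, either wild type or FGFR2C342Y/+ (heterozygous for a Crouzon syndrome allele), and the labels name no other allele or agent. There were 3 samples in each group: C57BL/6 wild type replicates 1, 2 and 3, C57BL/6 mutant replicates 4, 5 and 6, BALB/c wild type replicates 13, 14 and 15, and BALB/c mutant replicates 16, 17 and 18. Before RNA extraction all tissue was digested with collagenase type II and trypsin. The labels do not say that the samples of a group came from separate animals or whether tissue was pooled, so the p-values measure the spread between these samples. Run names in the sample descriptions place all C57BL/6 libraries on one flow cell and all BALB/c libraries on another, so strain and flow cell cannot be told apart.

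Hyaline cartilage is built on fibrils of type II collagen, the product of Col2a1, with type XI collagen (here Col11a2) in the fibril and type IX collagen (Col9a1, Col9a2 and Col9a3) on its surface. Between the fibrils lies aggrecan (Acan), a proteoglycan that carries chondroitin sulfate chains and is held on hyaluronan by the link protein Hapln1. Comp and Matn1 are adaptor proteins that bind collagens and aggrecan, and Cnmd encodes chondromodulin, a membrane protein of avascular cartilage. The transcription factor Sox9, together with Sox5 and Sox6, drives many of these genes in chondrocytes. The frontal and nasal bones form within membrane rather than from a cartilage template, and the cartilage closest to this dissection is that of the nasal capsule and skull base.

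Total gene counts ran from 27.2 M to 46.5 M per library, and the 10 genes together took 0.335% to 1.28% of them. Levels below are in CPM, counts per unit of library size with the sizes scaled by the trimmed mean of M values (TMM), except where the authors' RPKM is named. Y-linked counts exceeded Xist counts in 3 of 3 C57BL/6 wild type libraries and in 1 of 3 libraries of each other group. The part of this imbalance in the genotype and strain differences was not tested. Among the mutants, C57BL/6 replicate 4 and BALB/c replicate 17 stood apart from their groups in these genes, and results for the 10 genes that rest on them are given with and without them. Counts of calls over the lists of other genes include both libraries.

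Col2a1 (chr15:97975602-98004724) was at 4932, 3257 and 3525 CPM in C57BL/6 wild type replicates 1, 2 and 3 and at 1864, 83.6 and 112 CPM in mutant replicates 4, 5 and 6. In BALB/c it was at 248, 646 and 1154 CPM in wild type replicates 13, 14 and 15 and at 882, 3805 and 667 CPM in mutant replicates 16, 17 and 18. All 3 C57BL/6 mutant libraries lay below all 3 wild type libraries, while in BALB/c the genotypes overlapped and only mutant 17 reached the range of the C57BL/6 wild type. Group means were 3905 CPM ± 899 (SD, n = 3) in C57BL/6 wild type, 687 ± 1020 in C57BL/6 mutant, 683 ± 455 in BALB/c wild type and 1785 ± 1753 in BALB/c mutant samples. The SD exceeded the mean in the C57BL/6 mutant group and came close to it in the BALB/c mutant group.

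The type IX collagen genes showed a similar pattern. Col9a1 (chr1:24177610-24252738) was at 689, 465 and 493 CPM in C57BL/6 wild type, 253, 9.85 and 10.9 in C57BL/6 mutant, 33.6, 100.4 and 128 in BALB/c wild type and 82.1, 368 and 66.4 in BALB/c mutant libraries. Col9a2 (chr4:121039566-121055325) was at 547, 369 and 388 CPM, then 207, 9.60 and 14.2, then 38.8, 90.1 and 126, then 78.7, 326 and 64.6 in the same libraries. The high library of each mutant group was again replicate 4 or replicate 17. Col9a3 (chr2:180598222-180622185) was at 454, 289 and 313 CPM in C57BL/6 wild type, 159, 5.34 and 7.06 in C57BL/6 mutant, 28.2, 59.9 and 99.3 in BALB/c wild type and 61.2, 273 and 48.7 in BALB/c mutant libraries. Its 3′ end overlaps Tcfl5 on the other strand, which held 1054 counts over the 12 libraries against 69068 for Col9a3, and the strand setting of the counting is not given in the sources used here.

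Col11a2 (chr17:34039437-34066242) did not follow them. It was at 2691, 3404 and 3093 CPM in C57BL/6 wild type and at 3641, 3395 and 3779 CPM in C57BL/6 mutant libraries. In BALB/c it was at 3047, 3079 and 2964 CPM in wild type and at 3279, 3982 and 3308 CPM in mutant libraries. Its highest value was 1.48 times its lowest over the 12 libraries, whereas Col2a1 spanned 59-fold. Among 13674 genes with a mean of at least 1 CPM and no count of 0, the median of this ratio was 1.62.

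Acan (chr7:79053483-79115099) was at 824, 665 and 703 CPM in C57BL/6 wild type, 355, 130 and 109 in C57BL/6 mutant, 254, 284 and 302 in BALB/c wild type and 203, 411 and 195 in BALB/c mutant libraries. Its range over the 12 libraries, 7.54-fold, was narrower than that of Col2a1. Hapln1 (chr13:89540636-89611832), the link protein, was at 363, 216 and 233 CPM, then 107, 11.8 and 9.48, then 36.4, 44.5 and 53.7, then 41.7, 121 and 38.9 in the same libraries. The annotation of this locus holds a processed pseudogene, Gm8546, within the gene. For both genes the 3 C57BL/6 wild type libraries were the highest of the 12.

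Comp (chr8:70373548-70382066) was at 134, 94.5 and 93.9 CPM in C57BL/6 wild type and at 54.0, 10.96 and 16.4 CPM in C57BL/6 mutant libraries. All 6 BALB/c libraries were lower than the C57BL/6 wild type, at 4.43, 11.4 and 14.1 CPM in wild type and 9.65, 26.1 and 12.1 CPM in mutant libraries. Matn1 (chr4:130944385-130955476) was at 101, 71.1 and 73.3 CPM in C57BL/6 wild type, 37.0, 1.65 and 1.89 in C57BL/6 mutant, 8.86, 26.7 and 52.4 in BALB/c wild type and 24.3, 153 and 18.5 in BALB/c mutant libraries. Its highest library was BALB/c mutant 17, above all 3 C57BL/6 wild type libraries, in which the other members apart from Col11a2 peaked. Cnmd (chr14:79637690-79662170) was at 166, 101 and 112 CPM, then 55.5, 1.21 and 1.29, then 10.2, 19.1 and 31.3, then 16.9, 85.5 and 13.2, a 137-fold span that was the widest of the 10.

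**Figure D1:**
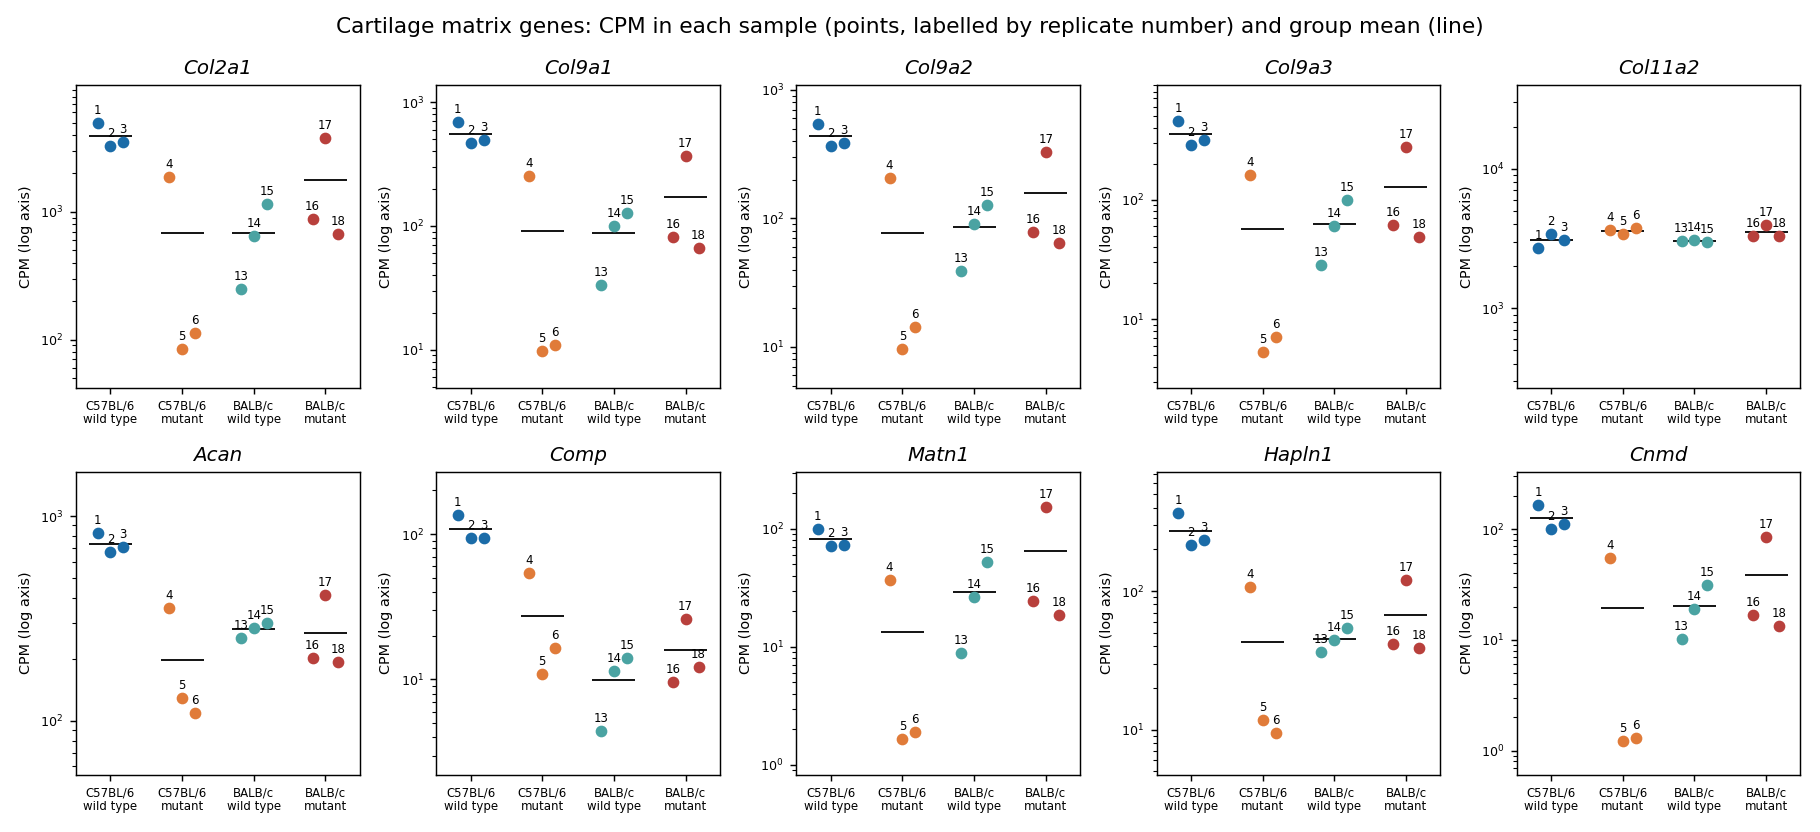
Level of each of the 10 genes in the 12 libraries, as CPM on a log axis, with one point per library marked by its replicate number and libraries grouped by strain and genotype. C57BL/6 mutant replicates 5 and 6 lie lowest for most genes, BALB/c mutant 17 lies above the other BALB/c libraries, and Col11a2 stays between 2691 and 3982 CPM.

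The levels of different genes were compared only per length, as the authors' RPKM. In C57BL/6 wild type Col2a1 was first at 640 RPKM ± 183 (SD, n = 3) and Col11a2 was next at 454 ± 36.3, with ranges of 517 to 850 and 425 to 495 that did not overlap. The type IX genes came next at 133 ± 37.3 for Col9a2, 119 ± 33.1 for Col9a1 and 104 ± 32.3 for Col9a3, in this order in each of the 3 libraries although the differences between the means were smaller than the SDs. Acan at 83.2 ± 13.9 and Cnmd at 74.0 ± 24.4 changed places between libraries. Hapln1 at 45.1 ± 15.95, Comp at 37.3 ± 10.1 and Matn1 at 34.3 ± 8.85 were lowest, again in one order in all 3 libraries with differences between neighbours smaller than the SDs. Col11a2 took the first place in the other groups, at 483 RPKM ± 32.0 against 104 ± 156 for Col2a1 in C57BL/6 mutants and at 468 ± 7.21 against 116 ± 78.0 in BALB/c wild type. In BALB/c mutants Col11a2 was at 555 RPKM ± 51.1 and Col2a1 at 303 ± 292, with Col2a1 first in replicate 17 alone.

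The bases just before the transcription start were available from RefSeq (GRCm38.p6) for 7 of the 10 genes, namely Col9a1 (with windows at a pair of starts), Col9a2, Col11a2, Acan, Matn1, Hapln1 and Cnmd. The windows ran from 250 bases before the start to 50 after it. They were searched on both strands for the SOX-type words ACAAAG and ACAATG, the TATA word TATAAA and the GC box GGGCGG, which reads CCGCCC on the other strand. Printed below are the 250 bases before the start for Col9a2, whose ratio to Col2a1 varied little beside the span of Col2a1, for Cnmd, which had the widest span, for Matn1, whose ratio to Col2a1 differed by strain, and for Col11a2, whose level hardly moved. Capitals mark TATA words and GC boxes. RefSeq's start of Col11a2 lies before the start in the count table.
Col9a2 (chr4:121039316-121039565, + strand): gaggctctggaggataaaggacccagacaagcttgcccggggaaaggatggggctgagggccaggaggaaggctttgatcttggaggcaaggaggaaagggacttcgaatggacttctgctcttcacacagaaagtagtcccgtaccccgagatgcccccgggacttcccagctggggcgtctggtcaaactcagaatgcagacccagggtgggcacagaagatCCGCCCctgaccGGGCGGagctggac
Cnmd (chr14:79662184-79662433, - strand): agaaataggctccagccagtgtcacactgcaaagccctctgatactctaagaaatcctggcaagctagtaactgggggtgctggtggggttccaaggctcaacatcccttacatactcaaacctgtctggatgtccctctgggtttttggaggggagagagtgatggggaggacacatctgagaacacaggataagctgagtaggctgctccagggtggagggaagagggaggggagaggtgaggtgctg
Matn1 (chr4:130944135-130944384, + strand): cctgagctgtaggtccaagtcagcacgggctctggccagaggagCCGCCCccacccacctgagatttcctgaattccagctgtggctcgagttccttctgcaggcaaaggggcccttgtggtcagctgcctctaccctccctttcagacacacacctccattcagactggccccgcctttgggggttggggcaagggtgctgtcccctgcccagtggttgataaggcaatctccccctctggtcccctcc
Col11a2 (chr17:34038888-34039137, + strand): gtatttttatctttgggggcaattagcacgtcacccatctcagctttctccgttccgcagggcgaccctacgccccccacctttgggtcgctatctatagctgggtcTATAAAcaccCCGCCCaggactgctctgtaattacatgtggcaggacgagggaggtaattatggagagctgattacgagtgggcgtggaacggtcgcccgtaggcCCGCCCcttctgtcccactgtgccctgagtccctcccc

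Neither SOX-type word was present in any of the 8 member windows, while 28.6% of 32851 windows of all genes held one or both. A GC box was present in the windows of Col9a2 (3 matches), Acan (3), Col11a2 (2) and Matn1 (1), and in 35.7% of all windows. The TATA word was found only in the Col11a2 window, 143 bases before the start, and in 13.6% of all windows. These are matches of letters in short windows, and enhancers in introns and at a distance were not examined.

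In C57BL/6, 9 of the 10 cartilage genes had lower CPM in every mutant library than in any wild type library, and Acan, Comp and Hapln1 fell past the threshold. The test was edgeR's quasi-likelihood test over 16190 genes, with a gene called at a Benjamini-Hochberg adjusted p under 0.05. It called 3 of 10 members, all lower, where 23.9% of all genes were called and 12.6% were called lower. Ranges that did not overlap, with mutants lower, were found for 21.9% of all genes. Higher calls were 1835 of the 3867 called over all genes, and 616 of 4680 with library totals in place of TMM. In bulk tissue, fewer cells of a type and less RNA per cell cannot be told apart.

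Acan, the aggrecan core protein, fell by 1.88 on the log2 scale (standard error 0.402, adjusted p 0.00773, edgeR), which is 3.69-fold. Comp fell by 1.98 (standard error 0.557, adjusted p 0.0249, edgeR) and Hapln1 fell by 2.65 (standard error 0.782, adjusted p 0.0300, edgeR). The collagen genes Col2a1, Col9a1, Col9a2 and Col9a3, with Matn1 and Cnmd, had log2 differences as large, from -2.69 for Cnmd to -2.50 for Col9a2, but with standard errors of 1.01 to 1.13. Their adjusted p-values lay between 0.0891 and 0.107. Col2a1 was 5.69-fold lower, with a 95% interval on the log2 scale from -4.86 to -0.16. Col11a2 differed the other way, by 0.24 (standard error 0.0989, adjusted p 0.1, edgeR). At an unadjusted p under 0.05 all 10 genes passed, as did 39.2% of all genes.

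The count rested on single libraries. Without C57BL/6 mutant 4, in which these genes were highest among the mutants, 9 of 10 were called lower, against 29.3% of all genes called in that fit. Col2a1 was then at a log2 difference of -5.32 (adjusted p 0.000649, edgeR) and Cnmd at -6.66 (adjusted p 0.00028, edgeR). Without wild type 1, mutant 5 or mutant 6, 1 of 10 was called each time, against 13.3%, 13.8% and 10.5% of all genes. Acan passed in 6 of 6 fits that left out 1 library, and Comp and Hapln1 each passed in 3 of 6. A fit of only the 2 C57BL/6 groups called 1 member, while limma-voom called 9 and, over all genes, 4705 against 3867 with edgeR. DESeq2 called Acan, Comp and Col11a2 and gave no adjusted p for Col9a1, Col9a2 and Hapln1, in this comparison and in the others below.

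Markers of respiratory and olfactory epithelium, the lining of the nose, moved with these genes in C57BL/6. The sum over 16 such markers was 432 to 895 CPM in wild type, 215 CPM in mutant 4, and 12.8 and 15.4 CPM in mutants 5 and 6. The cartilage genes without Col11a2 summed to 5527 to 8210 CPM, to 3092 CPM, and to 264 and 283 CPM in the same libraries. Of the 16 epithelial markers 10 fell and 0 rose (edgeR, adjusted p under 0.05), Foxj1 among them by 1.82 on the log2 scale (adjusted p 0.0544 in a fit of only the C57BL/6 groups), and none was at 0 counts throughout a C57BL/6 group. Over all genes 12.6% were called lower and 11.3% higher. The 12 osteoblast markers summed to 122480 to 211630 CPM in wild type and 235120 to 280400 CPM in mutant libraries, with 10 called higher. The 9 erythroid markers measured all fell, and their sums were 217 to 294 CPM in wild type and 57.1 to 88.4 CPM in mutant libraries. The part of these markers in the fall of Acan, Comp and Hapln1 was not tested.

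**Figure D2:**
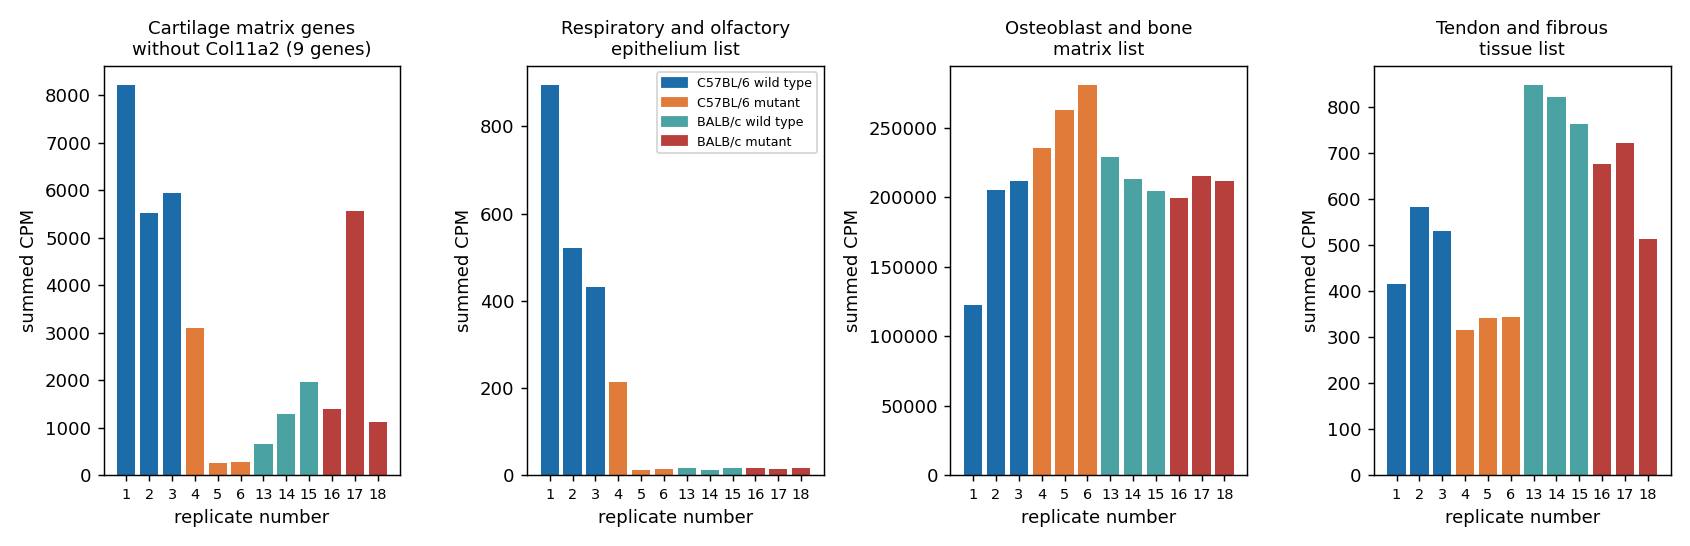
Summed CPM in each of the 12 libraries, as bars from 0, for the cartilage genes without Col11a2, respiratory and olfactory epithelium markers, osteoblast markers, and tendon and fibrous tissue markers. In C57BL/6 the epithelium sum falls from 432 to 895 CPM in wild type to 12.8 CPM in mutant 5, and in BALB/c it stays between 13.3 and 17.6 CPM, including mutant 17.

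In BALB/c, none of the 10 genes differed between mutant and wild type past the threshold, and 0.136% of all genes did. Log2 differences ran from -0.05 for Acan (standard error 0.390, adjusted p 0.986, edgeR) to 1.39 for Col2a1 (standard error 1.04, adjusted p 0.677, edgeR). The 95% interval of the Col2a1 difference, from -0.88 to 3.65 on the log2 scale, reached to both sides of 0. Col11a2 was the one member whose CPM ranges did not overlap, with mutants higher by 0.22 on the log2 scale (standard error 0.0989). It was also the one member with an unadjusted p under 0.05, with an adjusted p of 0.42 (edgeR), where 11.7% of all genes had an unadjusted p under 0.05. Limma-voom called 0 of 10, and DESeq2 0 of the 7 to which it gave an adjusted p. Across all genes, 9.93% had mutants higher with no overlap.

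Except for Col11a2, the positive differences in BALB/c rested largely on mutant 17. Without it the Col2a1 difference was 0.19 on the log2 scale, and those of Col9a1 (-0.23), Col9a2 (-0.24), Col9a3 (-0.18), Matn1 (-0.46), Hapln1 (-0.15) and Cnmd (-0.43) turned negative, with 0 of 10 called. In that fit Comp was at 0.12 and Col11a2 at 0.12, and 0.0121% of all genes were called. In BALB/c mutant 17 the epithelium markers summed to 15.7 CPM, inside the 13.3 to 17.6 CPM of the BALB/c libraries, while the cartilage genes without Col11a2 summed to 5569 CPM, against 1124 and 1400 CPM in the other mutants. In all 3 BALB/c wild type libraries the epithelium genes Bpifa1, Sec14l3, Cyp2g1 and Krt14 were at 0 counts, and Krt14 was at 0 in all 3 BALB/c mutant libraries.

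**Figure D3:**
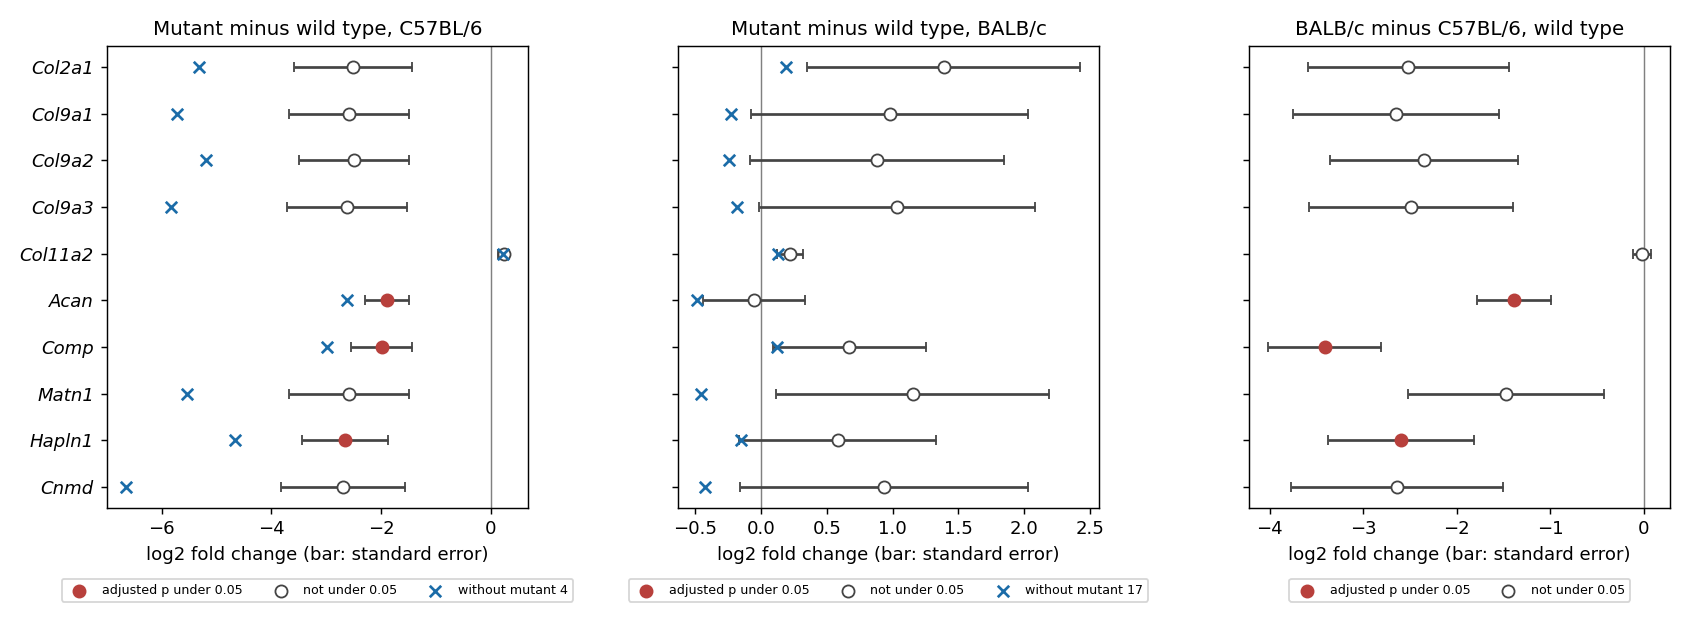
Log2 fold change with its standard error (bars) for each of the 10 genes, in mutant minus wild type within C57BL/6, mutant minus wild type within BALB/c, and BALB/c minus C57BL/6 in wild type; filled points have an adjusted p under 0.05 and crosses give the value without mutant 4 or mutant 17. Acan, Comp and Hapln1 are filled in the first and last panels, and no point is filled in the BALB/c genotype panel.

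Among wild type mice, BALB/c had lower CPM than C57BL/6 in every library for 9 of the 10 genes, and Comp, Acan and Hapln1 differed past the threshold. This comparison shares its C57BL/6 wild type libraries with the genotype comparison in C57BL/6. Called members numbered 3 of 10, all lower in BALB/c, against 48.5% of all genes called and 25.6% called lower, and 30.1% of genes had BALB/c lower with no overlap. At an unadjusted p under 0.05, 8 of 10 passed, against 55.2% of all genes. Comp was 10.6-fold lower, at 108 CPM ± 23.1 (SD, n = 3) in C57BL/6 and 9.99 ± 5.00 in BALB/c wild type, a log2 difference of -3.41 (standard error 0.604, adjusted p 0.00087, edgeR). Acan was lower by a log2 difference of -1.38 (standard error 0.396, adjusted p 0.0129, edgeR) and Hapln1 by -2.59 (standard error 0.782, adjusted p 0.0167, edgeR). For Col2a1 (-2.52), Col9a1 (-2.65), Col9a2 (-2.35), Col9a3 (-2.49) and Cnmd (-2.64), adjusted p lay between 0.0658 and 0.0782. Matn1 was at -1.47 (adjusted p 0.266, edgeR) and Col11a2 at -0.02 (adjusted p 0.912, edgeR).

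Comp and Acan passed in 6 of 6 fits that left out 1 wild type library, and Hapln1 passed in 4 of 6. A fit of only the wild type groups called 9 members lower, limma-voom called 7, and DESeq2 called Acan and Comp of the 7 with an adjusted p. The difference in Comp was -3.74 to -3.08 on the log2 scale over the fits that left out 1 library. The epithelium markers, at 432 to 895 CPM in C57BL/6 and 13.3 to 17.6 CPM in BALB/c wild type, were lower in 16 of 16 here, and their part in the strain difference of the cartilage genes was not tested.

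Between the mutants of the 2 strains none of the 10 genes was called, where 36.9% of all genes were. Differences, as BALB/c minus C57BL/6, ran from -0.76 for Comp to 2.26 for Matn1 (adjusted p 0.121, edgeR), and the CPM ranges overlapped for all 10, where 24.8% of genes were lower and 25.4% higher with no overlap. At an unadjusted p under 0.05 the count was also 0, against 46.8% of all genes, limma-voom called 0 of 10, and DESeq2 called 0 of the 7 with an adjusted p. Without C57BL/6 mutant 4, 8 members were called higher in BALB/c, against 32.6% of all genes called in that fit. The 8 were all members but Comp (0.24, adjusted p 0.711) and Col11a2 (-0.02, adjusted p 0.922). Without BALB/c mutant 17, 0 members were called, against 28.8% of all genes, with Col2a1 at 0.18 (adjusted p 0.92, edgeR). Markers of other cell types differed between these groups, with 9 of 9 erythroid, 8 of 10 skeletal muscle and 6 of 10 tendon markers called higher in BALB/c and 0 lower. The muscle sums were 436, 28.1 and 3.89 CPM in BALB/c mutants 16, 17 and 18 and 2.38 to 6.25 CPM in C57BL/6 mutants. With limma-voom the calls of Myh8, Myh3, Acta1 and Ckm were lost (adjusted p 0.244 to 0.515). Of the osteoblast markers 6 of 12 were lower and 2 higher, and of the epithelium markers 7 of 16 were lower and 1 higher. The epithelium sum was 215 CPM in C57BL/6 mutant 4 but 12.8 and 15.4 CPM in mutants 5 and 6. In BALB/c mutants it was 15.7 to 16.6 CPM. The calls of Omp, Cyp2g1, Sec14l3 and Cnga2 were lost with limma-voom and each kept in 2 of 6 fits that left out 1 library. The part of all these markers of other cell types in the members' differences was not tested.

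The interaction asked whether the genotype effect differed between the strains. None of the 10 passed, where 10% of all genes did, and 9 had an unadjusted p under 0.05, as did 29.5% of all genes. The estimates, as the effect in BALB/c minus that in C57BL/6, were 1.83 for Acan (standard error 0.555, adjusted p 0.0569, edgeR) and 2.65 for Comp (standard error 0.803, adjusted p 0.0563, edgeR). Hapln1 was at 3.24 (standard error 1.07, adjusted p 0.0734, edgeR), and the collagen genes other than Col11a2, Matn1 and Cnmd were between 3.38 and 3.89 with adjusted p of 0.11 to 0.146. DESeq2 called 1, Comp, of the 7 with an adjusted p, and limma-voom called 5 of 10. Col11a2 was at -0.02 (standard error 0.140, adjusted p 0.955, edgeR), and at 0.20 with library totals in place of TMM. Leaving out C57BL/6 mutant 4 brought 9 of 10 past the threshold, against 19% of all genes, and leaving out BALB/c mutant 17 brought 0, against 4.64%. With both left out 9 passed, against 14.7% of all genes, from 2.12 for Acan to 6.23 for Cnmd. Among markers of other cell types, 9 of 9 erythroid and 4 of 10 skeletal muscle markers were called higher, 5 of 12 osteoblast markers lower and 1 of 16 epithelium markers higher for the interaction. The 4 muscle calls were lost with limma-voom. The part of these markers in the members' estimates was not tested.

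Scaling between libraries cancels when a gene is given per Col2a1 count of the same library, so the balance among the matrix genes was described this way. These ratios were examined after the values were seen and carry no test. Per 100 Col2a1 counts, Col9a1 was at 13.98, 14.27 and 13.98 in C57BL/6 wild type, 13.6, 11.8 and 9.73 in C57BL/6 mutant, 13.6, 15.5 and 11.1 in BALB/c wild type and 9.31, 9.68 and 9.95 in BALB/c mutant libraries. It ranged from 9.31 to 15.5 while Col2a1 spanned 59-fold. Col9a2 ranged from 8.58 to 15.7 and Col9a3 from 6.28 to 11.4. Within BALB/c all 3 ratios were lower in every mutant than in any wild type library, with log2 differences of -0.46 for Col9a1, -0.56 for Col9a2 and -0.44 for Col9a3 between means, as was that of Cnmd (-0.65). Within C57BL/6 the same held for Col9a1 (-0.28), Col9a3 (-0.36), Matn1 (-0.17) and Cnmd (-0.91), while Col9a2 overlapped (0.07). Of 16189 genes, 1.75% had mutants lower in this way in BALB/c and 0.525% in C57BL/6.

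Comp and Matn1 were the 2 members, of the 9 set against Col2a1, whose ratios did not overlap between the strains. Comp was at 2.72, 2.90 and 2.66 counts per 100 Col2a1 counts in C57BL/6 wild type and 2.90, 13.1 and 14.6 in C57BL/6 mutant libraries. In BALB/c it was at 1.79, 1.77 and 1.22 in wild type and 1.09, 0.687 and 1.81 in mutant libraries, so that all 6 lay below all 6 C57BL/6 libraries, by 3.61-fold between geometric means. Between the wild type groups alone the ratio was 1.76-fold lower in BALB/c, and between the mutant groups 7.41-fold lower. Matn1 went the other way, at 2.04, 2.18 and 2.08 in C57BL/6 wild type, 1.98, 1.97 and 1.68 in C57BL/6 mutant, 3.58, 4.13 and 4.54 in BALB/c wild type and 2.75, 4.02 and 2.77 in BALB/c mutant libraries. Its ratio was 1.8-fold higher in BALB/c between geometric means, 1.93-fold between the wild type groups and 1.67-fold between the mutant groups. Among 16189 genes, 1.7% had ratios to Col2a1 that did not overlap between the strains, 0.191% with BALB/c higher and 1.51% with BALB/c lower.

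With Col9a1 as the reference in place of Col2a1, the mean strain difference was -1.68 on the log2 scale for Comp and 1.02 for Matn1. Acan and Hapln1 did not keep a fixed ratio to Col2a1 where Col2a1 was low. Acan was at 16.7 to 20.4 counts per 100 Col2a1 counts in C57BL/6 wild type and 19.0 in mutant 4, but at 155 and 97.3 in C57BL/6 mutants 5 and 6. In BALB/c it ranged from 10.8 in mutant 17 to 103 in wild type 13, the BALB/c library lowest in Col2a1. Hapln1 ranged from 3.18 in BALB/c mutant 17 to 14.7 in BALB/c wild type 13. Col11a2 was at 54.6 to 104 in C57BL/6 wild type and at 4063 and 3362 in C57BL/6 mutants 5 and 6. Cnmd showed the reverse among C57BL/6 libraries, at 3.09 to 3.36 in wild type and 1.45 and 1.15 in mutants 5 and 6.

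**Figure D4:**
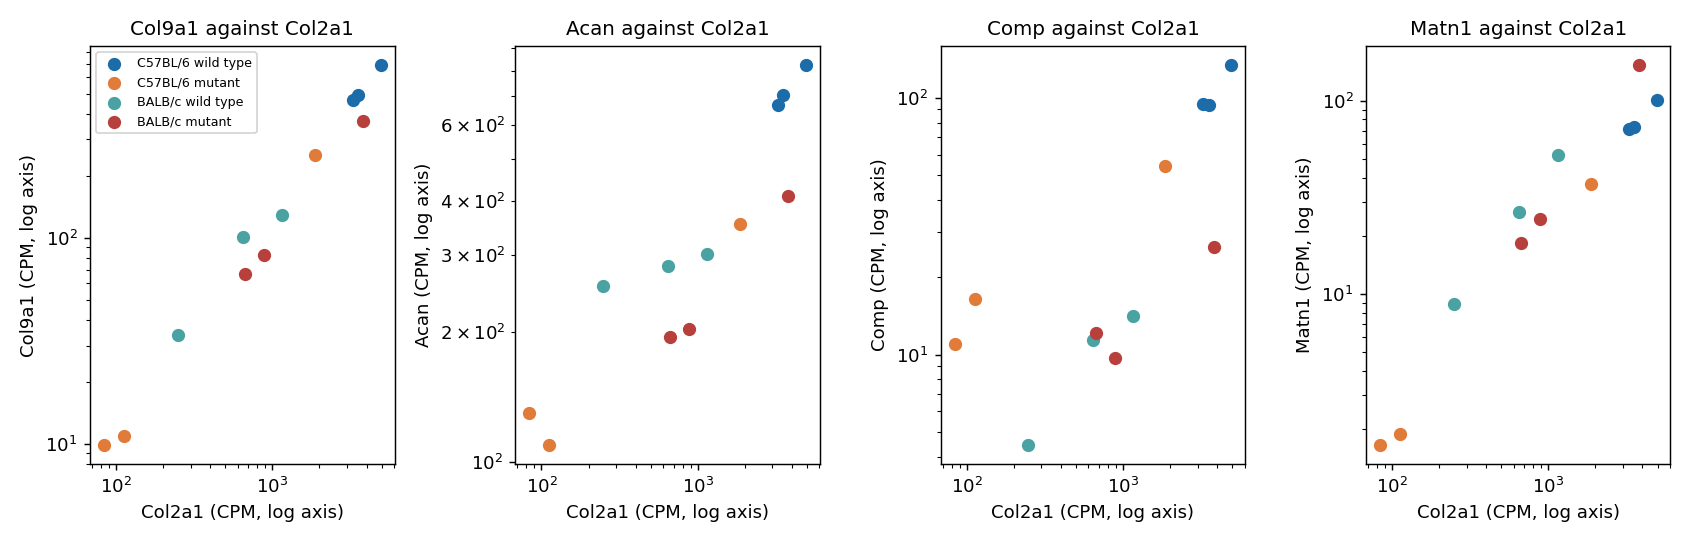
Levels of Col9a1, Acan, Comp and Matn1 (vertical axes, CPM, log scale) against Col2a1 (horizontal axes, CPM, log scale), one point per library, by strain and genotype. Col9a1 lies close to one line, the 6 BALB/c points lie lower for Comp and higher for Matn1 at a given Col2a1 level, and Acan spans a narrower range, 109 to 824 CPM.

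Other cartilage genes were examined as lists, to be read against the 23.9% of all genes called in the C57BL/6 genotype comparison, the 0.136% called in that of BALB/c, the 48.5% called between wild types and the 36.9% called between mutants. Of 16 further cartilage matrix genes, 6 fell and 0 rose in C57BL/6 mutants, with a median log2 difference of -1.73 against -0.00395 over all genes tested, which is 37.5% called. They included Col11a1, the partner chain of Col11a2, which fell by 0.61 on the log2 scale from 2213 CPM ± 144 to 1452 ± 129 (SD, n = 3; adjusted p 0.00773, edgeR), and Chad, a small leucine-rich matrix protein, by 1.45 (adjusted p 0.0149), a call kept in 3 of 6 fits that left out 1 library (adjusted p up to 0.0652). Col27a1 (-0.64) and Epyc (-1.12) fell too. In BALB/c 0 of 16 were called between genotypes, with 1 at an unadjusted p under 0.05, where 11.7% of all genes were. Between wild types 10 were lower in BALB/c, among them Col11a1 (-0.64), and 3 were higher, among them Matn4 (1.07) and Hapln3 (2.01), which are relatives of Matn1 and Hapln1, so that 81.2% were called. Between the mutants Matn4 (1.03) and Hapln3 (1.72) were the 2 called, both higher in BALB/c, a share of 12.5% that is below that over all genes.

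Of 10 transcription factors of chondrocytes, 4 (40%) fell in C57BL/6 mutants and 0 rose. Sox9 fell by 1.09 on the log2 scale (standard error 0.248, adjusted p 0.0103, edgeR), from 61.6 CPM ± 14.3 to 29.0 ± 8.99 (SD, n = 3). Sox5 fell by 1.14 (standard error 0.202, adjusted p 0.00309, edgeR), from 17.04 CPM ± 2.29 to 7.73 ± 1.83, while Sox6 was at 46.7 ± 8.77 and 43.6 ± 5.07 (adjusted p 0.628). The other 2 that fell were Zbtb20, by 0.77, and Foxa2, which is also expressed in airway epithelium and was near the limit of detection, at 0.468 to 0.662 CPM in wild type and 0 to 0.136 CPM in mutant libraries. Both SOX calls were kept in 6 of 6 fits that left out 1 library, that of Foxa2 in 1 of 6 and that of Zbtb20 in 0 of 6. In BALB/c mutants Sox9 was at 39.8 CPM ± 12.2 against 33.9 ± 4.71 in wild type (adjusted p 0.787), and Sox5 at 9.37 ± 1.97 against 5.29 ± 1.01 (adjusted p 0.147). Between wild types 5 of 10 (50%) were lower in BALB/c and 0 higher, close to the 48.5% of all genes called. Among them were Sox5 (-1.68, adjusted p 8.02e-05, edgeR) and Sox9 (-0.86, adjusted p 0.0133, edgeR). Fits that left out 1 library kept the Sox5 call in 6 of 6 and the Sox9 call in 4 of 6. The interaction passed for Sox5 (1.96, adjusted p 0.00326, edgeR) and Sox9 (1.32, adjusted p 0.0379, edgeR). The Sox5 call was kept in 12 of 12 fits that left out 1 library and that of Sox9 in 4 of 12. Without BALB/c mutant 17 Sox9 was at 1.04 (adjusted p 0.0787, edgeR), and without C57BL/6 mutant 4 at 1.60 (adjusted p 0.00443, edgeR).

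Enzymes that build and sulfate the chondroitin chains of aggrecan were called in both directions. Of 17, 4 rose and 3 fell in C57BL/6 mutants, or 41.2%. In BALB/c 0 of the 17 were called between genotypes, with 5 at an unadjusted p under 0.05 (edgeR), where 11.7% of all genes were. The genes named next are for C57BL/6 mutants. Csgalnact1, which starts the chondroitin chain, fell by 0.78 on the log2 scale (adjusted p 0.00622, edgeR), and Xylt1, which adds the first sugar to the core protein, fell by 0.68 (adjusted p 0.0136). B3gat3 (0.29) and Csgalnact2 (0.35) rose, with calls kept in 4 of 6 and 3 of 6 fits that left out 1 library, against 6 of 6 for Csgalnact1 and 4 of 6 for Xylt1. Both rises were lost with library totals in place of TMM, at 0.101 for B3gat3 (adjusted p 0.279, edgeR) and 0.157 for Csgalnact2 (adjusted p 0.155), and in a fit of only the C57BL/6 groups (adjusted p 0.113 and 0.14). In BALB/c wild type 7 were lower and 4 higher than in C57BL/6, together 64.7%, the lower ones including Xylt1 (-1.75), the sulfate transporter Slc26a2 (-1.63), the sulfate donor synthase Papss2 (-0.83) and Impad1 (-0.81). Among mutants 7 of 17 were lower in BALB/c, including Slc26a2 (-1.11) and Impad1 (-0.69), and 1 was higher, the sulfotransferase Chst3 (1.07, adjusted p 7.62e-05, edgeR).

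Genes of hypertrophic cartilage and the growth plate, many of which osteoblasts also express, went in both directions in C57BL/6 mutants, with 5 of 10 higher and 2 lower. The 2 were Col10a1 and Ihh. Col10a1, the type X collagen of hypertrophic chondrocytes, was at 342 CPM ± 53.7 in C57BL/6 wild type, 36.4 ± 48.5 in C57BL/6 mutant, 8.08 ± 1.34 in BALB/c wild type and 7.50 ± 2.34 in BALB/c mutant samples (SD, n = 3). Its log2 difference was -3.23 in C57BL/6 mutants (adjusted p 0.0108, edgeR; named after its values were seen) and -5.40 between wild types (adjusted p 0.000406, edgeR), each kept in 6 of 6 fits that left out 1 library. Without C57BL/6 mutant 4 the Col10a1 difference in C57BL/6 was -5.34, and a fit of only the 2 C57BL/6 groups lost its call (adjusted p 0.0811, edgeR). Between mutants Col10a1 was at -2.275 (adjusted p 0.0358, edgeR). Its CPM ranges overlapped there, at 6.30 to 92.3 in C57BL/6 and 4.98 to 9.60 in BALB/c. The interaction of Col10a1 did not pass, at 3.12 (adjusted p 0.0817, edgeR). Ihh, the hedgehog ligand of prehypertrophic chondrocytes, fell by 1.87 on the log2 scale (adjusted p 0.000463, edgeR), from 12.7 CPM ± 3.21 to 3.48 ± 0.848 (SD, n = 3). Spp1 (0.94), Mmp13 (0.69) and Pth1r (0.49) rose. Among 12 genes for the breakdown of aggrecan and type II collagen, 5 (41.7%) rose and 0 fell, including Mmp9 (0.96), the inhibitor Timp3 (0.72) and the aggrecanase Adamts5 (0.51). In the same comparison 10 of 12 osteoblast markers were called higher, and the part of bone cells in these rises was not tested. Of 13 genes for collagen folding and secretion 3 were called, a share of 23.1% that is close to that over all genes. These were Sec23a (0.36), Plod1 (0.32) and Lepre1 (0.38), all higher, with calls kept in 3, 4 and 3 of 6 fits that left out 1 library. With library totals in place of TMM they were at 0.168, 0.131 and 0.195 (adjusted p 0.0842, 0.107 and 0.0659, edgeR), and a fit of only the C57BL/6 groups lost the calls as well (adjusted p 0.0917, 0.118 and 0.121). In BALB/c 0 of the 10, 0 of the 12 and 0 of the 13 were called between genotypes, with 0, 2 and 2 at an unadjusted p under 0.05, to be read against the 11.7% over all genes.

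Tendon, which lies outside cartilage, also makes Comp. The 10 tendon and fibrous tissue genes summed to 416 to 583 CPM in C57BL/6 wild type, 315 to 345 in C57BL/6 mutant, 763 to 847 in BALB/c wild type and 514 to 722 in BALB/c mutant libraries. Between wild types 5 of 10 were called higher in BALB/c, where Comp was lower, and 0 lower (Tnmd at 0.98, edgeR adjusted p 0.00105), where 22.8% of all genes were called higher and 25.6% lower. In C57BL/6 mutants, where Comp fell, 0 were called higher and 2 lower, namely Fmod (-0.62, kept in 6 of 6 fits that left out 1 library) and Tnmd (-0.58, kept in 1 of 6). The part of tendon cells in the levels of Comp was not tested. Skeletal muscle markers summed to 436 CPM in 1 BALB/c mutant library and to 84.4 CPM or less in the other 11.

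The 8 genes whose log2 CPM over the 12 libraries was most like the mean of the 10 members were Snorc (listed as 3110079O15Rik; Pearson r 0.985), Clec3a (0.984), Mia (listed as Mia1; 0.981), Matn3 (0.977), Meltf (listed as Mfi2; 0.972), Ucma (0.971), Chadl (0.966) and Ppp1r1b (0.966). The values describe 12 libraries that share groups and flow cells, and carry no p. Of the 8, 6 were in the list of further cartilage matrix genes. Clec3a was at 122, 65.8 and 85.6 CPM in C57BL/6 wild type, 43.9, 0.194 and 0.862 in C57BL/6 mutant, 1.28, 3.71 and 5.27 in BALB/c wild type and 3.78, 34.7 and 3.40 in BALB/c mutant libraries. Mutant replicates 4 and 17 were again the high libraries of their groups. Ucma, named for the upper zone of growth plate cartilage, was highest in BALB/c mutant 17, at 12.7 CPM against 5.96 to 9.87 in C57BL/6 wild type.

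In the authors' deposited table of comparisons, the values for Acan, Hapln1, Comp and Col2a1 were smaller than those above. In C57BL/6 mutants against wild type it lists a log2 fold change of -0.74 for Acan (q 0.0506), -0.66 for Hapln1 (q 0.059), -0.52 for Comp (q 0.146) and -0.30 for Col2a1 (q 0.419). For C57BL/6 wild type over BALB/c wild type the authors' deposited table lists 0.70 for Comp (q 0.0225), 0.65 for Hapln1 (q 0.0398), 0.57 for Acan (q 0.107) and -0.0443 for Col11a2 (q 0.879). For BALB/c mutants against wild type its q-values for the 10 genes were 0.861 or above. The filters and any shrinkage behind these values are not given in the sources used here.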

How the data were processed

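RNA was sequenced from 12 samples. Per the submitters' processing notes, the tools were bcl2fastq, TopHat2 2.0.6, HTSeq and DESeq2 on genome build mm10; strand setting and annotation are not given in the sources used here. The authors deposited raw counts per gene, RPKM values on the coding length in the table, and a table of comparisons with log2 fold changes and p-values and q-values. All counts were even (0 odd values). Of the value columns, 0 belonged to no sample. Coordinates are as in the count table, counted from 1.

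Counts were analysed with edgeR 4.0.16 in R 4.3.3: filterByExpr (minimum count 10, total 15; 16190 genes), TMM scaling, 1 quasi-likelihood fit of 4 group means and 5 contrasts, with Benjamini-Hochberg adjustment over all genes and a threshold of 0.05. The standard error is that implied by the F statistic. Log2 CPM used a prior count of 2. The code was tested on simulated data. Alternatives were RLE factors, library totals, no filter, DESeq2 1.42.0, limma-voom (limma 3.58.1), only the groups compared, and leaving out libraries.

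The members and lists were chosen with earlier results of these data known. Named were all members, Sox9, Sox5 and Sox6, up to 4 genes per list and contrast by smallest adjusted p, and the 8 genes most alike. Totals per library were 27.2 M to 46.5 M counts, and precision is given as the SD or standard error over libraries.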

Additional observations from a re-analysis of the deposited data

Results flagged for a closer look

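The genotype effect differed between the strains, by the interaction term of the edgeR fit (effect in BALB/c minus effect in C57BL/6, log2 scale, adjusted p under 0.05 over all genes), for none of the 10 members and for 15 of the 77 genes in the 6 cartilage lists (19.5%; over all genes 10%), 8 with a positive and 7 with a negative difference. Of the 13 collagen folding and secretion genes 0 were called, with 6 at an unadjusted p under 0.05. Markers of other cell types moved with this contrast, with 9 of 9 erythroid markers and 4 of 10 skeletal muscle markers called higher and 5 of 12 osteoblast markers, Spp1 among them, called lower. Their part in the values was not tested. Given here are up to 4 cartilage genes per list, by smallest adjusted p. Epyc, a proteoglycan of the growth plate, was at 1.63 (adjusted p 0.0226), and its call was kept in 7 of 12 fits that left out 1 library. Sox5 was at 1.96 (adjusted p 0.00326), kept in 12 of 12. Sox9 was at 1.32 (adjusted p 0.0379), kept in 4 of 12. Foxa2 was at 7.75 (adjusted p 0.0493), kept in 2 of 12, but it was at 0 counts in all 3 BALB/c wild type libraries and at 0.662 CPM or less in every library, so this fitted value is no measure of size. Ihh was at 1.64 (adjusted p 0.012), kept in 12 of 12. Spp1 was at -1.16 (adjusted p 0.00346), kept in 12 of 12. Pth1r was at -0.55 (adjusted p 0.0132), kept in 12 of 12. Mmp13 was at -0.61 (adjusted p 0.0314), kept in 5 of 12. Among enzymes of chondroitin sulfate, Xylt1 was at 1.1 (adjusted p 0.0183), kept in 11 of 12, B3gat3 at -0.5 (adjusted p 0.0259), kept in 7, Csgalnact1 at 0.93 (adjusted p 0.0292), kept in 5, and Chst3 at 0.71 (adjusted p 0.0345), kept in 4. Of the breakdown genes, Mmp9 was at -0.87 (adjusted p 0.00484), kept in 12 of 12, and Timp3 at -0.55 (adjusted p 0.0332), kept in 4. With library totals in place of TMM the calls of Timp3 (-0.31, adjusted p 0.143), Mmp13 (-0.38, adjusted p 0.134) and B3gat3 (-0.27, adjusted p 0.0819) were lost.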

How the results depend on the processing

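No paired analysis was possible because the replicate numbers in the labels are not shared between groups. In the genotype comparison within BALB/c 0 members were called under every alternative run, with DESeq2 giving no adjusted p for Col9a1, Col9a2 and Hapln1 in any comparison. In C57BL/6, where 3 members were called, limma-voom called 9, the fit of only the groups compared 1, and fits without 1 library 1 to 9. Between wild types, with 3 called, limma-voom called 7, the fit of only the groups compared 9, and fits without 1 library 2 to 3. Between mutants, with 0 called, fits without 1 library called 0 to 8. For the interaction, with 0 called, library totals called 2, DESeq2 called 1, limma-voom called 5 and fits without 1 library 0 to 9. Fits without 1 library called 10.5% to 29.3% of all genes in C57BL/6 and 39.7% to 44.5% between wild types. Their shares were 27.3% to 32.6% between mutants and 3.78% to 19% for the interaction. Leaving out C57BL/6 mutant 4 and BALB/c mutant 17 together, chosen after seeing the data, gave 9 in C57BL/6, 9 between wild types, 8 between mutants and 9 for the interaction, and the groups of 2 rest on the spread shared over groups. Over all genes the shares called in these comparisons were 27.4%, 47.3%, 27.5% and 14.7%. Fewer samples enter these fits, and all groups share an estimate of spread. Leaving out both mutants removed no wild type library, and Col2a1 stayed at -2.52 between wild types. Its adjusted p there went from 0.0725 to 0.00053 (edgeR). The cause of these changes in the counts was not tested.

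Directions changed only where values were not called. With both mutants left out, the genotype difference in BALB/c was -0.23 for Col9a1, -0.25 for Col9a2, -0.18 for Col9a3, -0.46 for Matn1, -0.15 for Hapln1 and -0.43 for Cnmd, and the interaction of Sox6 was -0.0402. With library totals, which shifted the median gene by -0.196 (C57BL/6 genotype), -0.115 (wild types), 0.117 (mutants) and 0.231 (interaction), Col11a2 was at 0.0821 between mutants and 0.20 for the interaction. Over the fits that left out 1 library, the genotype difference in BALB/c ran from -0.49 to 0.13 for Acan, -0.23 to 1.36 for Col9a1, -0.24 to 1.28 for Col9a2, -0.18 to 1.54 for Col9a3, -0.46 to 1.87 for Matn1, -0.15 to 0.86 for Hapln1 and -0.43 to 1.40 for Cnmd. The difference between mutants ran from -0.30 to 4.06 for Col9a1, -0.10 to 3.73 for Col9a2, -0.0591 to 4.38 for Col9a3, -0.0897 to 2.66 for Hapln1, -0.37 to 4.96 for Cnmd, -1.31 to 0.24 for Comp and -0.13 to 0.0237 for Col11a2. Col11a2 ran from -0.10 to 0.0695 between wild types and from -0.11 to 0.0476 for the interaction, and Sox6 from -0.22 to 0.0225 in the C57BL/6 genotype comparison and from -0.0517 to 0.19 for the interaction. Library totals also moved the split of calls over all genes, with 3698 of 7847 higher becoming 2221 of 7130 between wild types, 2914 of 5968 becoming 4039 of 5954 between mutants, and 884 of 1626 becoming 1672 of 1847 for the interaction. Of the 7 members with an adjusted p, DESeq2 called Acan, Comp and Col11a2 in C57BL/6, the last at 0.24 (adjusted p 0.041).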
